A study of Mus musculus with 6 samples.

Results

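The genes described here are 8 autophagy and lysosome genes, Atg5, Atg7, Atg10, Atg12, Atg16l1, Lamp1, Lamp2 and Tfeb. They were chosen by name, and all 8 were among the 750 endogenous genes of the panel. The samples were tumors from the mouse liver cancer line BNL-MEA, implanted below the capsule of the left liver lobe of BALB/c males aged 6 to 7 weeks. The cells carried either a PD-L1 plasmid, coding for the protein that restrains T cells through PD-1, or the empty plasmid, and stable clones of both had been selected with G418. The 2 plasmids were in different clones, so clone and plasmid cannot be told apart. Total RNA of 3 tumor samples per group was counted with the NanoString nCounter system, in which a barcoded probe reports each captured RNA molecule. Whether each sample is a separate mouse is not stated, so p-values cover the spread between samples only, which may be technical. The description of the empty plasmid samples also mentions clones expressing PD-L1, so the groups are called by their titles, ovPDL1 and Empty, and samples by the replicate number in the title. Cd274, the gene of PD-L1, averaged 5.80 ± 0.41 in the ovPDL1 and 6.56 ± 1.10 in the Empty samples (log2, SD, n = 3 each; limma adjusted p = 0.557), and where its probe lies is not known, so it did not check the titles.

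Autophagy is the process by which a cell wraps part of its cytoplasm in a double membrane and delivers it to the lysosome for breakdown. Atg7 activates the small ubiquitin-like protein Atg12, Atg10 passes it to Atg5, and the Atg12-Atg5 conjugate joins Atg16l1 in a complex that directs the lipidation of LC3 on the growing membrane. Lamp1 and Lamp2 are the abundant glycoproteins of the lysosomal membrane, and Tfeb is a transcription factor that activates many genes of lysosomes and autophagy. In liver, autophagy is known for keeping hepatocytes free of damaged mitochondria and protein aggregates.

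The samples held 1009717 to 1894819 gene counts, recovered from the deposited log2 values, while the 8 negative control probes summed to 72 to 109. Of 5 marker lists the hepatocyte list ranged most widely between samples. The mean log2 level of its 14 present members, of 18 listed, was 5.71, 4.64 and 8.96 in ovPDL1 samples 1 to 3 and 7.85, 11.89 and 10.12 in Empty samples 1 to 3. Their summed linear level ran from 905 to 13970 in the first group and from 7872 to 101400 in the second. Averaged over all 6 samples, none of the 14 was below the background limit of 4.66, which was set from the negative control probes. In ovPDL1 sample 2 the list mean itself, 4.64, lay just under that limit, so part of the list was below it there. The 12 macrophage markers present, of 13, summed to 29670 to 51760 and 19830 to 30630, with none below the limit. Of 8 T cell markers, 6 lay below it (Cd3e, Cd4, Cd8a, Cd8b1, Cd2 and Cd5). The mean of the epithelial markers Epcam and Cdh1 was 10.10 in ovPDL1 sample 1 against 4.07 to 7.29 in the other 5 samples. The 8 endothelial markers averaged 7.78 and 8.39 in the ovPDL1 and Empty groups.

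All 8 genes were read well above background in every sample, and none passed the test for a difference between the groups. The lowest reading was 79 counts, for Tfeb in Empty sample 2, and the highest was 14374 counts, for Lamp1 in Empty sample 3. In limma's moderated test over 541 tested genes, 0 of the 8 had an adjusted p under 0.05, as had 0% of all tested genes. At an unadjusted p under 0.05 there were also 0 of 8, against 17% of tested genes. The samples of the groups overlapped for all 8 genes in the values as deposited, while 18.3% of tested genes showed no overlap. The mean was higher in the ovPDL1 samples for 2 of the 8, Lamp1 and Atg10, against 40.1% of tested genes, and lower for the other 6. In bulk tissue fewer cells of a type and less RNA per cell cannot be told apart, which holds for every level given here.

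**Figure D1:**
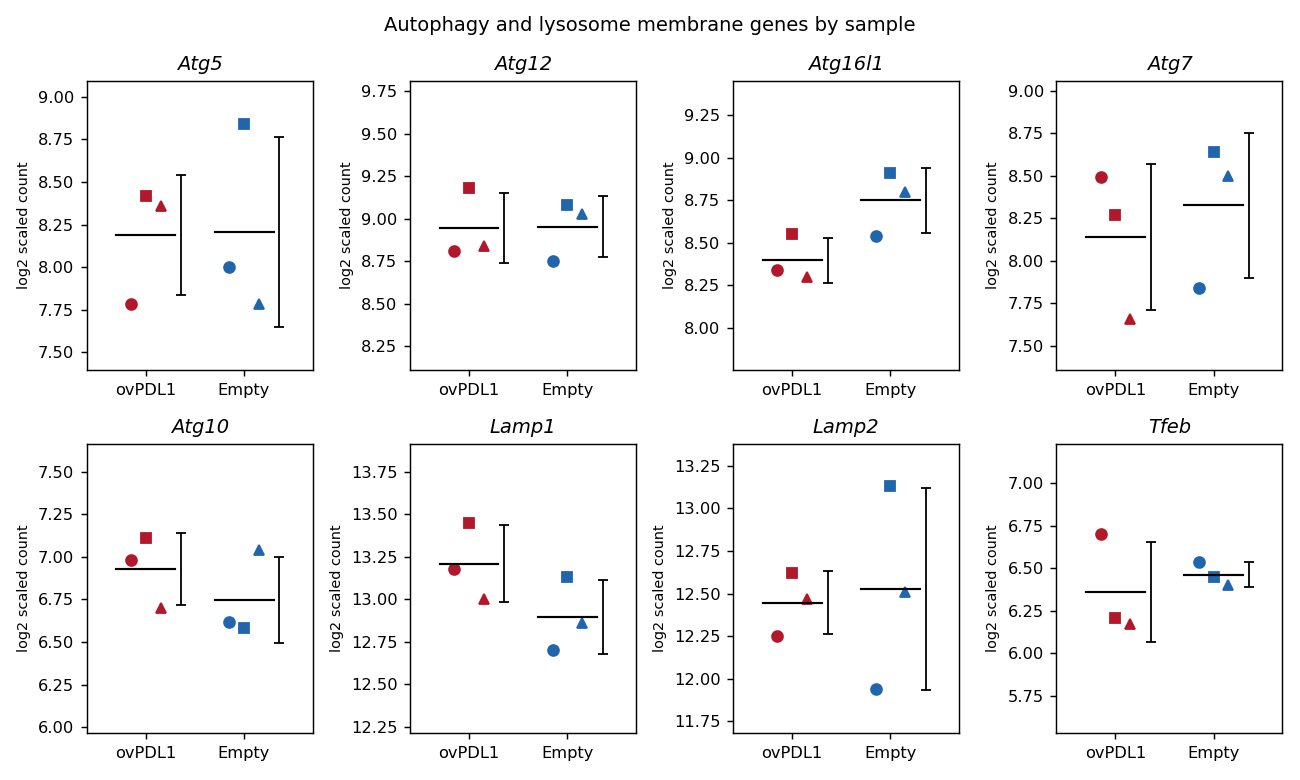
Log2 scaled count of each of the 8 genes in every sample, with the group mean (line) and SD (bar, n = 3) and with circles, squares and triangles for replicates 1, 2 and 3. Every vertical axis spans the same log2 range, and in every panel the 2 groups overlap.

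Atg12, the ubiquitin-like protein of the conjugation complex, had log2 values of 8.81, 9.18 and 8.84 in ovPDL1 samples 1 to 3. In Empty samples 1 to 3 it had 8.75, 9.08 and 9.03. Both groups covered nearly the same range, and their means of 8.95 ± 0.21 and 8.95 ± 0.18 (SD, n = 3 each) were equal at this rounding. In limma the ovPDL1 minus Empty difference was -0.0049 ± 0.24 (SE). Its 95% interval ran from -0.59 to 0.58 (limma adjusted p = 0.998).

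Atg5, the acceptor of Atg12, varied more. Its log2 values were 7.78, 8.42 and 8.36 in ovPDL1 samples 1 to 3 and 8.0, 8.84 and 7.78 in Empty samples 1 to 3. Empty sample 2 was the highest of the 6 and Empty sample 3 the lowest, a 2.08-fold range within 1 group. The difference was -0.02 ± 0.37 (SE, n = 3 per group), with a 95% interval from -0.91 to 0.88 (limma adjusted p = 0.987). Without Empty sample 2 it was 0.30, and without Empty sample 3 it was -0.23.

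Atg16l1, which brings the conjugate to the membrane, had the largest absolute difference of the 8 genes. It stood at 8.34, 8.55 and 8.30 in ovPDL1 samples 1 to 3 and at 8.54, 8.91 and 8.80 in Empty samples 1 to 3. A single pair of samples overlapped, since ovPDL1 sample 2 lay just above Empty sample 1. The difference was -0.36 ± 0.24 (SE, n = 3 per group) with a 95% interval from -0.93 to 0.22, and it did not pass (limma adjusted p = 0.492). It kept its sign in every fit that left out 1 sample, between -0.46 and -0.28.

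The enzymes upstream of the complex had mean differences of opposite sign, each smaller than the spread between samples. Atg7, the activating enzyme shared by Atg12 and LC3, stood at 8.49, 8.27 and 7.66 in ovPDL1 samples 1 to 3. Its values were 7.84, 8.64 and 8.50 in Empty samples 1 to 3. Each group held 1 low sample, ovPDL1 sample 3 and Empty sample 1, and the difference was -0.19 ± 0.35 (SE, n = 3 per group, limma adjusted p = 0.818). Without ovPDL1 sample 3 the difference was 0.05, and without Empty sample 1 it was -0.43.

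Atg10, the enzyme that transfers Atg12 to Atg5, was read with fewer counts, 86 to 253 per sample. It stood at 6.98, 7.11 and 6.70 in ovPDL1 samples 1 to 3 and at 6.62, 6.58 and 7.04 in Empty samples 1 to 3. Empty sample 3 lay above 2 of the 3 ovPDL1 samples. The difference was 0.18 ± 0.30 (SE, n = 3 per group), with a 95% interval from -0.52 to 0.89 (limma adjusted p = 0.777). Leaving out single samples gave 0.096 without ovPDL1 sample 2 to 0.33 without Empty sample 3.

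Lamp1 and Lamp2 were the most deeply counted of the 8 genes, with 8081 to 14374 and 6511 to 11224 counts per sample. Levels of different genes are not ranked here, because each is read by its own probe. The promoters of both are shown because Tfeb is known to bind the letters CACGTG within a longer motif, and the panel reads Tfeb beside its lysosomal targets. That of Atg5 is printed beside them. The sequences are the 250 bases before the transcription start in RefSeq, build GRCm38.p6, 5′ to 3′ on the gene's strand, with every CACGTG in capitals.
Lamp1, chr8:13158911-13159160, plus strand: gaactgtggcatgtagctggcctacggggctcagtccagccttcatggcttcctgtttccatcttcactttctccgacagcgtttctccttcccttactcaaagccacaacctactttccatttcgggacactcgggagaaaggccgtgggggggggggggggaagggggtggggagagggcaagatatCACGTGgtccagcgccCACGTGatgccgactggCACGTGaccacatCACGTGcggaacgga
Lamp2, chrX:38456461-38456710, minus strand: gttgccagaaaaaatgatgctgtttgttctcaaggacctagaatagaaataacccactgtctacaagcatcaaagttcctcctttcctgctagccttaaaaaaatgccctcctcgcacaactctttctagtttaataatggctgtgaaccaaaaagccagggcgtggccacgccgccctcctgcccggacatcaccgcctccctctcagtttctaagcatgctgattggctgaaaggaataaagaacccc
Atg5, chr10:44268089-44268338, plus strand: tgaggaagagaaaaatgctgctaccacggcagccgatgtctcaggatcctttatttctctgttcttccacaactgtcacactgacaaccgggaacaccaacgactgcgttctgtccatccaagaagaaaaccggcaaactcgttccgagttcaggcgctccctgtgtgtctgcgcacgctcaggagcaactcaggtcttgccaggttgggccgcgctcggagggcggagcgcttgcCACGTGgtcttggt
The Lamp1 window held CACGTG 4 times, beginning 61, 45, 28 and 15 bases before the start. The Lamp2 window held none, and the Atg5 window held 1, beginning 14 bases before the start. CACGTG reads the same on both strands. It occurred in 6.02% of the 32851 such windows in the RefSeq table, and 4 or more copies in 7 windows (0.0213%). The cutoff of 4 was the count of the Lamp1 window itself, so that share is a description only. Of the 8 genes, 6 had a window, and Atg12 and Atg16l1 had none in the table. Among the windows not printed, that of Atg7 held 1 copy, that of Atg10 none, and the 3 windows of Tfeb none. A match to these letters is a description of the sequence and shows no binding.

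Lamp1 had log2 values of 13.18, 13.45 and 13.00 in ovPDL1 samples 1 to 3 and 12.70, 13.13 and 12.86 in Empty samples 1 to 3. The ovPDL1 samples held the 2 highest values, and ovPDL1 sample 3 lay below Empty sample 2. The means were 13.21 ± 0.23 and 12.90 ± 0.22 (SD, n = 3 each). The difference was 0.31 ± 0.25 (SE), with a 95% interval from -0.29 to 0.92, and did not pass (limma adjusted p = 0.576). It stayed above 0 without any single sample, between 0.19 and 0.43. Poisson counting error was on average 0.014 on the log2 scale, far below the SD of 0.22 between samples within groups.

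Lamp2 had the widest range of the 8, 2.28-fold over the 6 samples. It stood at 12.25, 12.62 and 12.47 in ovPDL1 samples 1 to 3 and at 11.94, 13.13 and 12.51 in Empty samples 1 to 3. The lowest and the highest sample both belonged to the Empty group. Its difference was -0.08 ± 0.35 (SE, n = 3 per group), with a 95% interval from -0.91 to 0.75 (limma adjusted p = 0.903). The value was 0.22 without Empty sample 2 and -0.38 without Empty sample 1. As deposited, Empty sample 2 was highest for Lamp2, Atg5, Atg7 and Atg16l1, 4 of the 8, against 18.7% of tested genes. It had the highest hepatocyte list mean, 11.89, the highest mean of the panel's 20 reference genes, 10.29, and the fewest gene counts, 1009717. With samples shifted to equal reference means, Atg7 was highest in ovPDL1 sample 1 (8.66) and Atg16l1 in Empty sample 3 (8.84). Lamp2 and Atg5 stayed highest in Empty sample 2. With the hepatocyte list mean as a covariate the Lamp2 difference was 0.35 ± 0.49 and the Atg5 difference 0.35 ± 0.53 (SE). Neither passed the test (limma adjusted p = 0.920 and 0.931). The list mean itself differed between the groups, 6.44 in the ovPDL1 and 9.95 in the Empty samples. This fit therefore separates group and list mean poorly, and without the covariate the SEs were smaller, 0.35 and 0.37. The probe accession of Lamp2 is 1 of 3 curated RefSeq transcripts of the gene, and with no probe position at hand the splice forms of Lamp2 were not told apart.

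Tfeb was read with the fewest counts, 79 to 163 per sample. It stood at 6.70, 6.21 and 6.17 in ovPDL1 samples 1 to 3 and at 6.54, 6.45 and 6.40 in Empty samples 1 to 3. The 3 Empty samples lay close together (SD 0.07) and inside the range of the others (SD 0.30). The difference was -0.10 ± 0.29 (SE, n = 3 per group), with a 95% interval from -0.81 to 0.60 (limma adjusted p = 0.885). It was -0.27 without ovPDL1 sample 1 and -0.0086 without ovPDL1 sample 3. At this depth Poisson counting error alone was on average 0.14 on the log2 scale, against 0.21 between samples within groups.

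For 7 of the 8 genes the 95% interval of the difference lay within 1 log2 unit of 0, a 2-fold change either way, and the interval of Atg7 reached -1.04. Among all tested genes 24.2% had an interval within the same bounds. That share depends on the size of the difference as well as on the width of the interval. The intervals are per gene, from the fit on the values as deposited, and not adjusted for the number of genes. With the hepatocyte covariate the SEs of all 8 were larger, for example 0.41 for Atg16l1 and 0.54 for Atg7 against 0.24 and 0.35. Their intervals were therefore wider in that fit. Under median scaling the Lamp1 difference was 0.47 ± 0.27 (SE). The count of 7 was not taken for the alternatives, so changes above 2-fold are not excluded. The median absolute difference was 0.14 for the 8 genes and 0.44 over all tested genes. The median SD between samples within groups was 0.23 for the 8 and 0.45 over all tested genes. Atg16l1, Atg12, Tfeb, Lamp1 and Atg10 each had an SD above that of at most 11.8% of tested genes, and the share was 45.8 to 52.5% for Atg7, Lamp2 and Atg5.

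**Figure D2:**
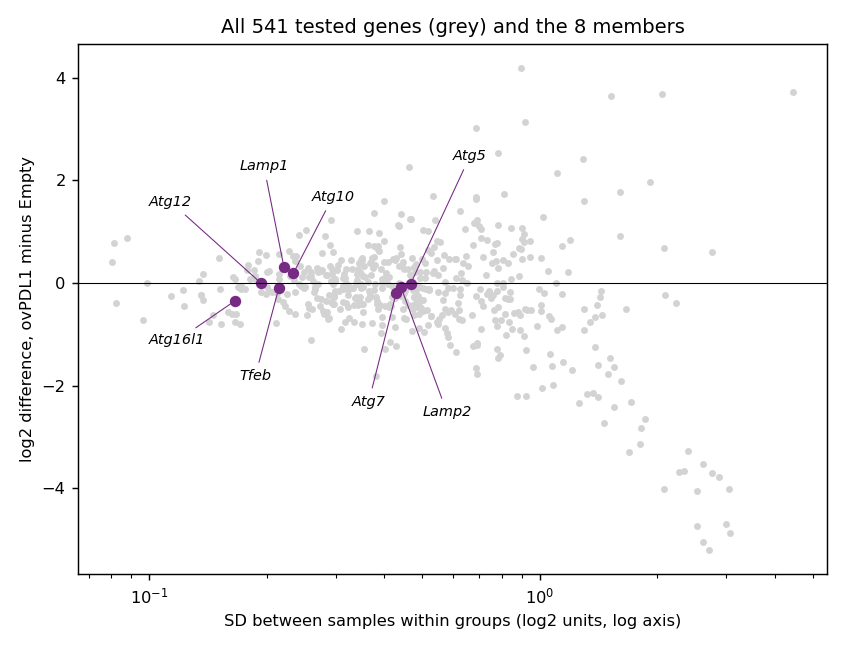
Difference between groups (log2, vertical axis) against the SD between samples within groups (log2 units, log axis) for all 541 tested genes in grey, with the 8 genes in purple. All 8 lie between -0.36 and 0.31 on the vertical axis, while tested genes reach beyond 4 in both directions.

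Scaling between samples was then examined, because the authors' scaling left the reference genes uneven. The mean log2 value of the 20 reference genes was 9.82, 10.16 and 9.94 in ovPDL1 samples 1 to 3 and 9.77, 10.29 and 9.95 in Empty samples 1 to 3. Empty sample 1 had the lowest reference mean and the lowest value of Lamp1, Lamp2 and Atg12. The median of the tested genes followed another pattern. It deviated from its own mean by 0.01, -0.16 and -0.08 in ovPDL1 samples 1 to 3. In Empty samples 1 to 3 it deviated by 0.01, 0.05 and 0.17. Which scaling is nearer the truth was not tested. When samples were shifted to equal reference means, the SD within groups became smaller for 6 of the 8 genes, for example from 0.44 to 0.24 for Lamp2 and from 0.22 to 0.12 for Lamp1. It became larger for Atg10, from 0.23 to 0.33, and for Tfeb, from 0.21 to 0.38. Over all tested genes the median SD went from 0.45 to 0.53.

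**Figure D3:**
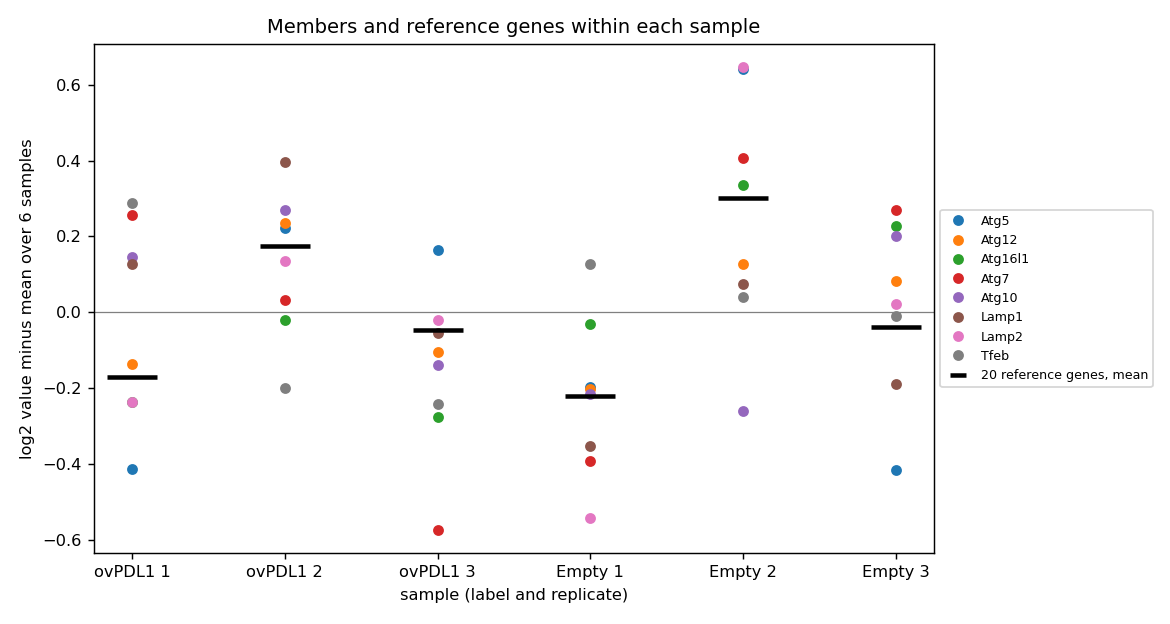
Deviation of each gene (dots) and of the mean of 20 reference genes (bars) from its own mean over the 6 samples, in log2 units, by sample. The reference mean is lowest in Empty sample 1 and highest in Empty sample 2, at -0.22 and 0.30, and Lamp2 is lowest and highest in the same samples.

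After reference scaling the groups no longer overlapped for Lamp1 and Atg16l1, 2 of the 8 genes, against 16.6% of tested genes. Lamp1 then stood at 13.35, 13.27 and 13.04 in ovPDL1 samples 1 to 3 and at 12.92, 12.83 and 12.90 in Empty samples 1 to 3. Atg16l1 stood at 8.51, 8.38 and 8.34 in the first group and at 8.76, 8.61 and 8.84 in the second. Lamp1 was above and Atg16l1 below the Empty range in all 3 ovPDL1 samples, and neither difference passed the test. They were 0.34 ± 0.24 and -0.33 ± 0.27 (SE, n = 3 per group; limma adjusted p = 0.611 and 0.669). Scaling to equal medians shifted every difference by 0.16. Only Lamp1 of the 8 then showed no overlap, against 20% of tested genes. Its difference was 0.47 ± 0.27 (SE, limma adjusted p = 0.435). That separation was slight. As deposited, Lamp1 stood at 12.998 in ovPDL1 sample 3 and 13.127 in Empty sample 2. The medians of these samples deviated by -0.079 and 0.054, so the scaling left their Lamp1 values nearly level.

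**Figure D4:**
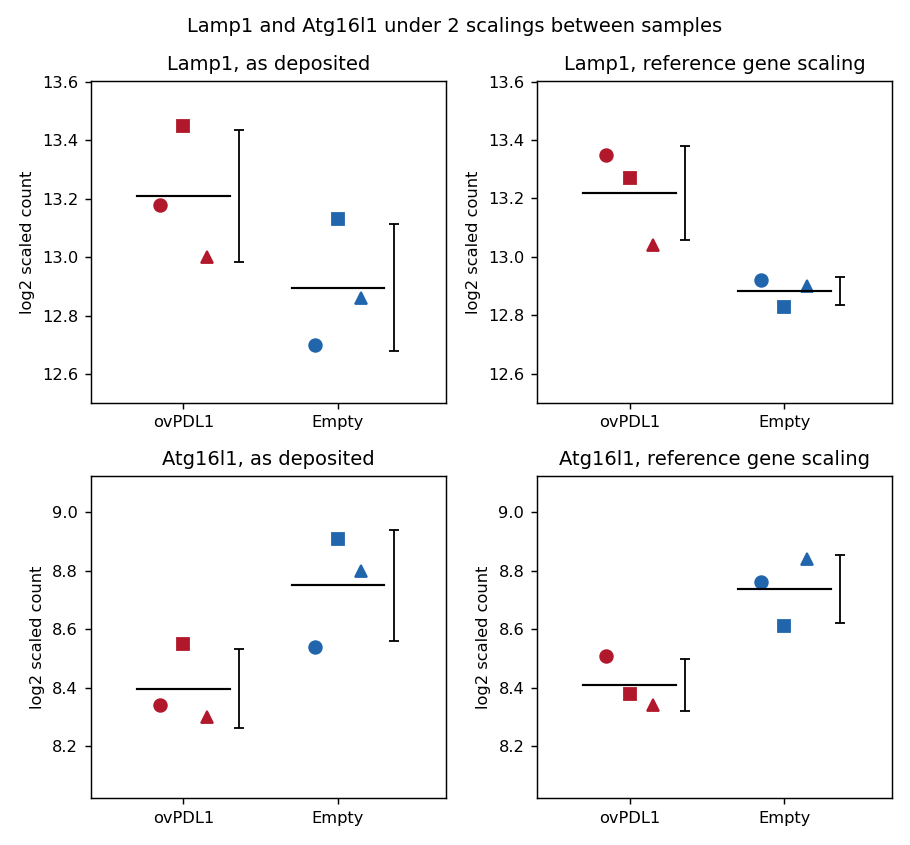
Log2 scaled counts of Lamp1 and Atg16l1 as deposited (left) and after shifting samples to equal reference gene means (right), with group means, SD (n = 3) and circles, squares and triangles for replicates 1, 2 and 3. The groups overlap on the left and are separate on the right, at 13.04 and above against 12.92 and below for Lamp1.

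Ratios of 2 genes within a sample do not depend on the scaling, and 5 pairs were compared. The log2 ratio of Lamp2 over Lamp1 was -0.93, -0.83 and -0.53 in ovPDL1 samples 1 to 3 and -0.76, 0.01 and -0.36 in Empty samples 1 to 3. The 2 lowest ratios belonged to ovPDL1 samples, the groups overlapped, and their means differed by -0.39 (two-sided exact permutation p = 0.2, adjusted over the 5 pairs 0.5). With 3 against 3 samples that test cannot give a p below 0.1. Tfeb over Lamp1 differed by -0.42 (exact permutation p = 0.2, adjusted 0.5), and the ratio in ovPDL1 sample 1, -6.48, lay within the range of the other group. Within the conjugation system Atg12 over Atg5 differed by 0.01 (exact permutation p = 0.9, adjusted 0.9) and Atg16l1 over Atg5 by -0.34 (exact permutation p = 0.5, adjusted 0.625). Atg10 over Atg7 differed by 0.38 (exact permutation p = 0.3, adjusted 0.5). None of the 5 ratios separated the groups. The size of a ratio depends on the probes and is not read here.

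Other genes of autophagy and the lysosome were counted in the same fit. Of 56 such genes listed, 13 were on the panel, and 10 of these were tested. Over all genes 0 of the 10 passed (limma, adjusted p), 1 had an unadjusted p under 0.05 (17% of all tested genes) and 0 had groups without overlap (18.3%), with means higher in the ovPDL1 samples for 4 and lower for 6. Their median difference was -0.07, against -0.12 over all tested genes and -0.05 for the 8 genes. The 4 with the smallest p were Cd63, Ctsh, Cd68 and Irgm2.

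Cd63, a tetraspanin of late endosomes and lysosomes, stood at 13.78, 14.73 and 14.66 in ovPDL1 samples 1 to 3 and at 13.79, 13.40 and 13.52 in Empty samples 1 to 3. ovPDL1 sample 1 lay just under the highest sample of the other group, and the remaining 2 lay above all of them. The difference was 0.82 ± 0.34 (SE, n = 3 per group; unadjusted p = 0.0493 and adjusted p = 0.291, limma). Without ovPDL1 sample 1 it was 1.13, and without ovPDL1 sample 2 it was 0.65. Ctsh, for the lysosomal protease cathepsin H, differed by -0.63 ± 0.41 (SE; limma adjusted p = 0.489) and turned to 0.13 with the hepatocyte covariate. It was -1.07 without ovPDL1 sample 3 (limma unadjusted p = 0.0088, adjusted p = 0.169) and -0.37 without ovPDL1 sample 1. Cd68, a Lamp-family glycoprotein of macrophages, differed by 0.39 ± 0.29 (SE; limma adjusted p = 0.550), beside the macrophage list means of 10.54 and 9.77 in the ovPDL1 and Empty groups. Members of that list differed unevenly, with the largest differences for Cd163 and Mrc1, 3.68 and 2.53. Csf1r and Cd14 stood at 0.14 and 0.18, and Emr1 and Cybb were lower in the ovPDL1 samples, at -0.06 and -0.23. The part of the macrophage content in the Cd68 difference was not tested. The Cd68 difference was 0.11 with the hepatocyte covariate and 0.20 without Empty sample 2 or 0.21 without ovPDL1 sample 2. Without ovPDL1 sample 1 it was 0.55. Irgm2, an interferon-induced GTPase that acts in autophagy of pathogens, differed by -0.72 ± 0.55 (SE; limma adjusted p = 0.557). It ranged from -1.26 without Empty sample 3 (limma unadjusted p = 0.0365, adjusted p = 0.482) to -0.41 without Empty sample 1.

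The remaining tested genes were Tfe3, a close relative of Tfeb, at -0.07 ± 0.26 (SE), the cathepsin genes Ctsl, Ctss and Ctsw at 0.09, 0.34 and -0.11, and Bcl2 and Bcl2l1, whose products bind the autophagy protein Beclin, at -0.07 and -0.13. None of these 6 passed. Lamp3, the dendritic cell member of the Lamp family, and Ctsg, for the neutrophil protease cathepsin G, lay below the background limit on average and were not tested. Lamp3 averaged 3.98 ± 0.26 and 3.11 ± 0.85 (SD, n = 3 each) in the ovPDL1 and Empty groups, under the limit in both groups. Gusb, for the lysosomal enzyme beta-glucuronidase, is a reference gene of the panel and averaged 9.85 ± 0.22 and 9.80 ± 0.09.

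**Figure D5:**
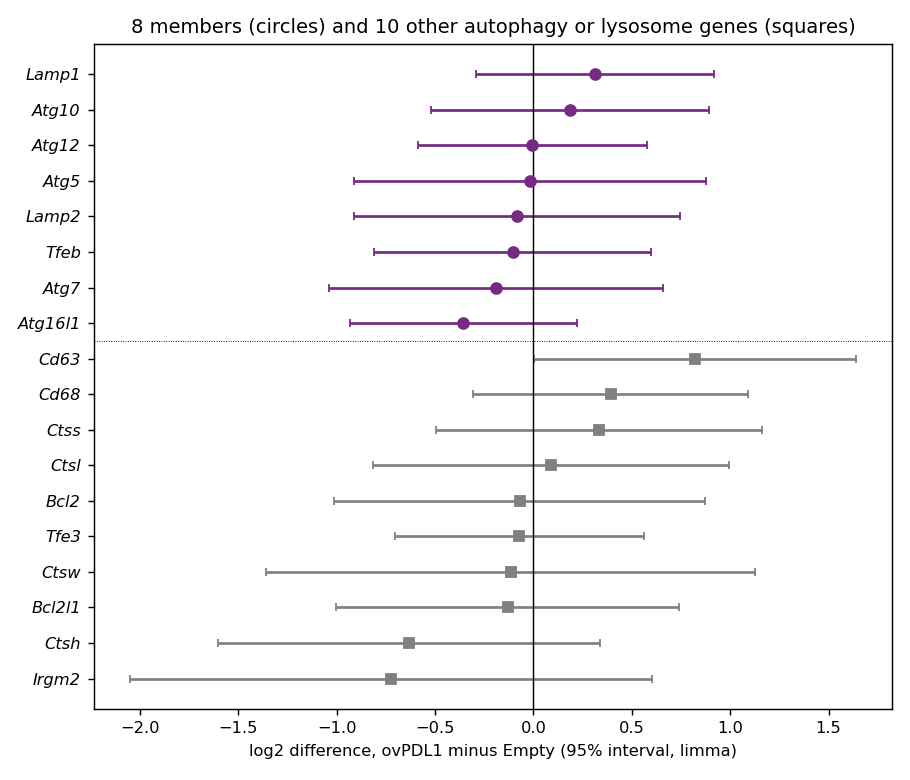
Difference between the ovPDL1 and the Empty group (log2, horizontal axis) with its 95% interval from limma, for the 8 genes (circles) and 10 other tested autophagy or lysosome genes (squares). The intervals of all 8 genes cross 0, and Cd63 is the gene whose interval lies above 0, from 0.004 to 1.64.

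Correlations among the 8 genes depended on the scaling. As deposited, Pearson's r over the 6 samples was 0.50 for Lamp1 with Lamp2 and 0.50 for Atg5 with Atg12, and after reference scaling it was -0.31 and -0.88. These values share the scaling of each sample and describe 6 points. Atg5 with Lamp2 had the highest r among the 8 as deposited, 0.77, and 0.36 after reference scaling. Tfeb had r of -0.27 with Lamp1 and -0.34 with Lamp2 as deposited, and 0.18 and -0.59 after reference scaling.

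Among the 533 other tested genes, the 2 whose pattern over the 6 samples was most like each gene had Pearson's r between 0.860 and 0.979. The search over so many genes with 6 points makes high values common. For Atg5 they were the interferon-induced genes Ifi35 and Ifi27 (r of 0.966 and 0.964). Lamp2 was nearest to Apoe, for apolipoprotein E, and Raet1, a ligand gene of the receptor NKG2D (0.951 each). Lamp1 was nearest to the apoptosis gene Bax and the lymphotoxin beta receptor gene Ltbr (0.944 and 0.942), and Tfeb to the cyclin gene Ccnd3 and Pml (0.943 and 0.918). Atg16l1 was nearest to the kinase gene Map2k2 and to Cd164 (0.979 and 0.947). For Atg7 the nearest were Ikbkb and Tollip (0.979 and 0.953), for Atg10 Smad4 and Abca1 (0.961 each), and for Atg12 Ctsl and Nrp1 (0.878 and 0.860).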

How the data were processed

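Total RNA of 6 tumor samples was counted on a NanoString nCounter panel without dye label, per the labels' protocols. The deposited values are log2 counts that the authors had scaled per sample. The scaling's basis, its software and a genome build are not given in the sources used here. Whole counts were recovered from the values, since 2 to the power of a value equalled a count times a sample factor plus 0.158, whole within 0.001. A second deposited table held identical values for 770 genes. Genes were tested when their mean reached the negative controls' mean plus 2 SD (4.66), which kept 541 of 750. Groups, taken from the titles, were compared with limma 3.58.1 in R 4.3.3 (lmFit, eBayes with trend, Benjamini-Hochberg over 541 genes), and tested on simulated data. Ratios used two-sided exact permutation tests. The 8 accessions were matched to RefSeq (GRCm38.p6). Members, lists and naming rules were chosen with earlier results of these data known. All 8 genes are named. Of the other pathway genes on the panel the 4 with the smallest p and, after their values were seen, the rest are named. For each of the 8 the 2 most correlated genes are named too. Alternatives covered scaling, trend, background limit and subtraction, voom, a hepatocyte covariate, a replicate block, the second table and leaving out each sample. Figures used matplotlib 3.10.9.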

Additional observations from a re-analysis of the deposited data

How the results depend on the processing

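None of the 8 genes passed under any of the 16 alternatives, the lowest adjusted p being 0.435 (limma) and the lowest unadjusted p 0.132, both for Lamp1 under median scaling. Lamp1 and Atg16l1 kept their sign in all 16. Alternatives in the trend, the background limit, the replicate block and the second table leave the difference itself unchanged, so they could not change a sign. The differences of the other 6 genes, and that of Ctsh, changed sign under some alternatives, and the cause was not tested. Reference gene scaling gave Atg5 0.011 and Atg12 0.024. Median scaling, which shifts every difference by 0.16, gave Atg5 0.14, Atg12 0.15, Lamp2 0.073 and Tfeb 0.051. The voom fit on recovered counts gave Atg5 0.033. With the hepatocyte covariate Atg5 was 0.35, Lamp2 0.35, Atg12 0.014, Atg10 -0.00042 and Ctsh 0.13. Leaving out 1 sample at a time gave ranges of -0.23 to 0.30 for Atg5, -0.43 to 0.049 for Atg7, -0.12 to 0.062 for Atg12 and -0.38 to 0.22 for Lamp2. The ratio of Atg12 over Atg5 ran from -0.24 to 0.27. Over all genes 92 had an unadjusted p under 0.05. The number was 27 with the hepatocyte covariate, which itself differed between the groups, and 38 to 92 without single samples. It was lowest without ovPDL1 sample 2 and 53 without Empty sample 3. No gene passed after adjustment except 1 under reference gene scaling, F13a1, named after its value was seen (adjusted p = 0.0448). Of the 10 other pathway genes 1, Cd63, had an unadjusted p under 0.05, and 0 had one under reference gene scaling, the hepatocyte covariate and the replicate block. Without single samples the count was 0 to 1, and the gene was Cd63 without ovPDL1 sample 1, Ctsh without ovPDL1 sample 3 and Irgm2 without Empty sample 3. Deviations from the group mean had r of 0.27, -0.20 and -0.13 between the samples with replicate numbers 1, 2 and 3. Only the samples of replicate 1 correlated best with their own number. The deviations sum to 0 within each group, so these r values depend on one another. With the replicate block 0 of the 8 genes passed and 80 genes had an unadjusted p under 0.05. Depth limits Tfeb and Atg10, whose counting error of 0.14 and 0.12 stands against 0.21 and 0.23 between samples.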
